A study of Mus musculus with 26 samples.

Results

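The respiratory chain and the ATP synthase were followed through 88 genes of the 35976 in a table of read counts from mouse liver tumours and control livers. Members were the rows with at least 500 counts over all 26 libraries whose symbols name subunits of complex I (Nduf), complex II (Sdh), complex III (Uqcr), complex IV (Cox) or complex V, the ATP synthase (Atp5), and the protein genes of mitochondrial DNA. No row carried the prefix mt-, and the 13 protein genes of mitochondrial DNA stood under RefSeq symbols such as ND1 and COX1, by which they were found. Of these, ND1, ND2, ND3, ND4, ND5, ND6, CYTB and COX1 reached the minimum (8 genes), and ATP6, ATP8, COX2, COX3 and ND4L did not (5 genes). Of 86 nuclear rows 80 reached it, with 37 in complex I, 4 in complex II, 8 in complex III, 14 in complex IV and 17 in complex V. The other 6 were Cox6a2, Cox7b2, Cox8b, Cox8c and the pseudogenes Atp5c1-ps and Uqcrh-ps1. Symbols placed Ndufa4 in complex I, although its protein is known as a subunit of complex IV, and brought in Atp5s and Atp5sl, whose products are known as chain accessory factors rather than core subunits.

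Complexes I and II take electrons from NADH and from succinate, complex III hands them to cytochrome c, complex IV hands them to oxygen, and the ATP synthase uses the proton gradient built on the way to make ATP. Mitochondrial DNA encodes core subunits of complexes I, III, IV and V, which its own polymerase transcribes as long precursors. Complex II and all other subunits are encoded in the nucleus and imported, so each assembled complex but II needs both genomes. Hepatocytes are rich in mitochondria, which support gluconeogenesis, urea synthesis and fatty acid oxidation.

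Tumours came from mice of mixed C57BL/6J and Swiss Webster strain given tamoxifen on postnatal day 28, which activated a Cre recombinase (CreERT2) in zone-restricted hepatocytes, with 6 to 12 months of follow-up. Cyp1a2_CA tumours (10 libraries, 9 animal numbers) were Cyp1a2-CreERT2; Ctnnb1(ex3)fl/+; Arid2fl/fl, with the driver of hepatocytes near the central vein, a stabilising deletion of exon 3 of beta-catenin and loss of the chromatin remodelling subunit Arid2. Gls2_CA tumours (9 libraries, 5 animal numbers) carried the same alleles under Gls2-CreERT2, a driver of hepatocytes near the portal vein. The single Cyp1a2_C library was Cyp1a2-CreERT2; Ctnnb1(ex3)fl/+ with no floxed Arid2 in its label, and WT livers (6 libraries) came from C57BL/6J mice given Cre by adeno-associated virus and kept for up to 12 months. Strain, virus, tamoxifen and tumour state therefore changed together and cannot be told apart. Counts of libraries with the same animal number were summed, n counts animal numbers, and levels are CPM, counts scaled by TMM factors to the same library total.

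Libraries held between 37051941 and 49254470 counts in Cyp1a2_CA, between 36992043 and 42865787 in Gls2_CA, 41038144 in Cyp1a2_C and between 13486530 and 16975288 in WT. Ttn, which encodes titin of striated muscle, exceeded 1000 CPM in the Cyp1a2_CA tumours of CAB44 and CAB225, the Gls2_CA tumour of GAB235 and the Cyp1a2_C tumour CB6, 4 libraries in all. Some results are also given without them. The summed level of 10 hepatocyte markers was 10299.9 to 54447 CPM in Cyp1a2_CA libraries, 3871 to 18038 in Gls2_CA, 569 in Cyp1a2_C and 81454 to 104317 in WT, and none of the 10 was at 0 in any group. The Kupffer cell and macrophage marker sum was 48.8 to 217 CPM in Cyp1a2_CA, 57.5 to 253.3 in Gls2_CA and 253.7 to 313 in WT, the endothelial one 218 to 428, 219 to 408 and 518 to 589, and the cholangiocyte one 53.7 to 215, 89.9 to 249.98 and 48.2 to 78.2, in the same order of groups. Both chain sums and the hepatocyte, macrophage and endothelial sums were below every WT liver in all tumours. The median hepatocyte sum over libraries was 19624 CPM in Cyp1a2_CA and 16166 in Gls2_CA. The part of cell composition was not tested: in bulk tissue, fewer hepatocytes and less RNA per hepatocyte cannot be told apart. The strand setting of the counting is not given in the sources used here, and several chain genes have processed pseudogenes, so reads from overlapping or copied sequence are uncertain.

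The mitochondrial genes were first compared with a nuclear copy of part of mitochondrial DNA. In GENCODE M21 on GRCm38 (mm10), 7 pseudogene models on the minus strand of chromosome 1 between 24611535 and 24616197 repeat a run of mitochondrial DNA, and none of the 7 is a row of the count table. ND4L, COX3, ATP6 and COX2 matched their models over 99.0 to 99.9% of the gene with 0 different bases. ND3 differed at 1 of 345 aligned bases, ND4 shared 63.6% of its length, and COX1 shared 31.8% of its length with 6 different bases in 492. ND1, ND2, ND5, ND6 and CYTB shared no stretch of 50 bases with the models. The start of the shared part of ND3 and of COX1 is shown for both genomes, with differing bases in capitals, since a read from the lower-case part fits both places.

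ND3 in mitochondrial DNA, chrM:9459-9518, plus strand: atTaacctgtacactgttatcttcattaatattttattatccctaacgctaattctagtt
ND3 copy on chromosome 1, chr1:24613060-24613119, minus strand: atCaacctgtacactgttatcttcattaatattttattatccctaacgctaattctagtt
COX1 in mitochondrial DNA, chrM:6381-6440, plus strand: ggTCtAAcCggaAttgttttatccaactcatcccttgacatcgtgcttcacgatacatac
COX1 copy on chromosome 1, chr1:24616138-24616197, minus strand: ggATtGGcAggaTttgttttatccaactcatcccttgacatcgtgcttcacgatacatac

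Summed over 26 libraries, COX2 had 7 counts, COX3 6, ATP6 23, ATP8 4 and ND4L 176, although the mitochondrial precursor that carries them is the one that carries COX1 with 7661492 counts. ATP8 shared 0 of 155 stretches of 50 bases and 4.7% of those of 36 bases with the models. It lies between COX2 and ATP6 in mitochondrial DNA. Chromosome 1 sequence between the models of these genes (24614651 to 24614885) was not compared, so a copy of ATP8 there was not tested. How the authors treated reads with several matching places is not given in the sources used here, and its part in these low counts was not tested. Reads of mitochondrial DNA and of the copy cannot be told apart over nearly all of ND3 and over part of ND4 and COX1.

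The 7 mitochondrially encoded members other than ND3 fell in both tumour groups. Counts called ND3 fell too, but nearly all of its length is shared with the chromosome 1 copy. CYTB, the catalytic cytochrome b of complex III, had 3834, 5986 and 7380.0 CPM (lowest, median, highest of 9) in Cyp1a2_CA, 10679, 12326, 3381, 10403 and 7809.8 CPM in the 5 Gls2_CA animals, and 16802, 19239 and 22816 CPM (lowest, median, highest of 6) in WT. No tumour animal reached the lowest WT liver, and the lowest Gls2_CA animal was the Ttn-high GAB235. On the log2 scale CYTB changed by -1.81 in Cyp1a2_CA (SE 0.158, edgeR adjusted p = 4.9e-08) and by -1.22 in Gls2_CA (SE 0.298, adjusted p = 0.0029).

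COX1, the oxygen-binding core of complex IV, had 3974, 7734 and 9211 CPM (lowest, median, highest) in Cyp1a2_CA, 10875, 10356, 3636, 8762 and 7052 CPM in Gls2_CA, and 20032, 20948 and 22659 CPM in WT. Both groups lay wholly below WT, and COX1 changed by -1.65 (SE 0.178, edgeR adjusted p = 5.5e-07) in Cyp1a2_CA and by -1.48 (SE 0.272, adjusted p = 4.0e-04) in Gls2_CA on the log2 scale. ND2, a membrane subunit of the proton-pumping arm of complex I, had 2778, 5783 and 7072 CPM in Cyp1a2_CA, 9839, 13768, 2730.3, 8170.2 and 7524 CPM in Gls2_CA, and 13268, 15415 and 19794 CPM in WT. Here 1 Gls2_CA animal, GAB229, lay within the WT range, and the log2 fold change in Gls2_CA was -0.999 (SE 0.333, edgeR adjusted p = 0.017). ND2 no longer passed in Gls2_CA when the first library of each animal number was taken (-0.82, adjusted p = 0.056).

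ND6, the only member on the other strand of mitochondrial DNA, had 1040.4, 1781 and 2432 CPM in Cyp1a2_CA, 2716, 3693, 1063, 2549.7 and 2232 CPM in Gls2_CA, and 3729, 4133 and 4796 CPM in WT. Its fall was the smallest of the 8 in both comparisons, with log2 fold changes of -1.35 (SE 0.164, edgeR adjusted p = 2.2e-06) and -0.88 (SE 0.260, adjusted p = 0.0092). Within the summed counts of the mitochondrial members other than ND3, ND6 made up 5.55 ± 0.638% in Cyp1a2_CA (SD, n = 9), 5.65 ± 0.358% in Gls2_CA (n = 5) and 4.42 ± 0.0576% in WT (n = 6). Cyp1a2_CA reached down to 4.37% and WT up to 4.50%, so these groups overlapped, while the lowest Gls2_CA animal was at 5.18%. Without a stated strand setting, the counts of ND6 may hold reads of the opposite strand, and this was not tested. COX1 made up 22.5 ± 1.17% in Cyp1a2_CA, 18.96 ± 2.12% in Gls2_CA and 22.4 ± 1.57% in WT. ND3 had at most 0.894 CPM in Cyp1a2_CA, 1.32 CPM in Gls2_CA and 3.17 in Cyp1a2_C, against at least 7.28 in WT, and nearly its whole length is shared with the chromosome 1 copy.

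**Figure D1:**
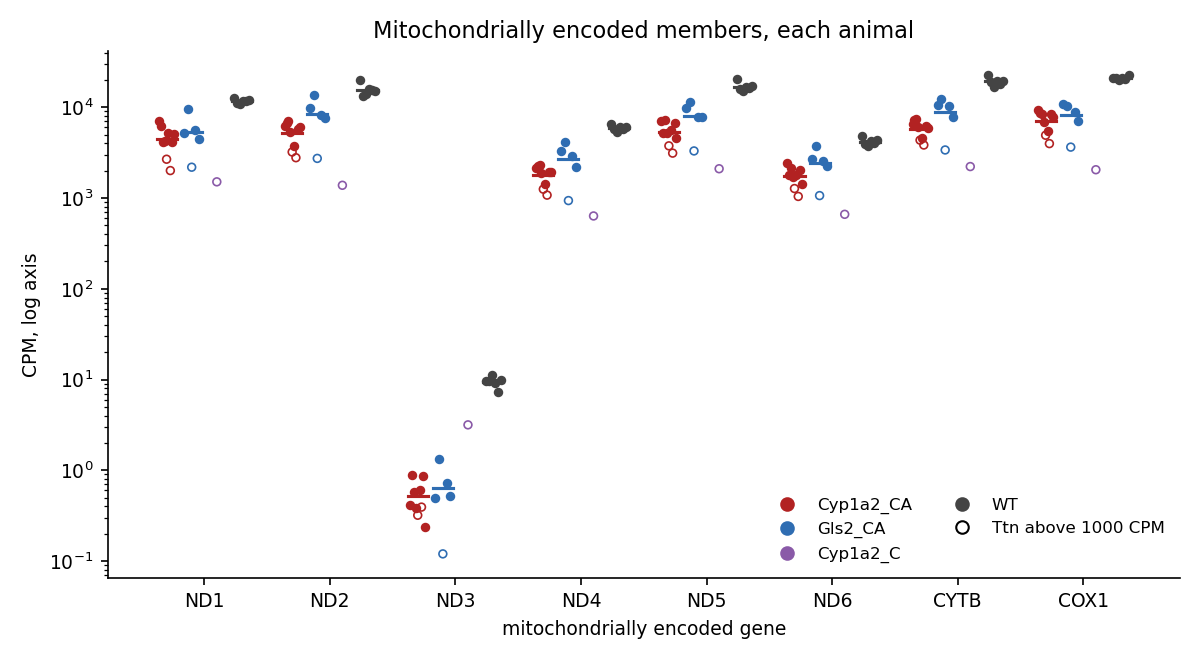
CPM on a log axis of the 8 mitochondrially encoded members in each animal, with lines at group means and open circles for animals with Ttn above 1000 CPM. Every Cyp1a2_CA animal lay below every WT liver for each gene, and of the Gls2_CA animals only GAB229 reached the WT range, for ND2. The share of all genes tested that were so separated is not given here, so separation alone does not set these genes apart.

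Counts of all genes tested set the background. Between Cyp1a2_CA and WT, edgeR called 32.7% of 16841 genes lower and 38.3% higher, and of 87 members tested 74 were lower, 5 higher and 8 did not pass. Between Gls2_CA and WT, 34.0% of 14976 genes were lower and 39.2% higher, and of 86 members tested 72 were lower, 5 higher and 9 did not pass. The median log2 fold change of the mitochondrial members was -1.69 in Cyp1a2_CA and -1.22 in Gls2_CA, that of the nuclear members tested -1.60 and -1.57, and that of all genes tested 0.175 and 0.138. Without the Ttn-high libraries the mitochondrial medians were -1.56 and -1.02 and the nuclear ones -1.49 and -1.39.

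Summed CPM showed the balance of the genomes. The 8 mitochondrial members summed to 31509 ± 7880.2 CPM in Cyp1a2_CA (SD, n = 9), 44005 ± 17796 in Gls2_CA (n = 5), 10553 in Cyp1a2_C and 94523 ± 7657 in WT (n = 6). The 80 nuclear members summed to 3841 ± 739 CPM in Cyp1a2_CA, 4033 ± 1144 CPM in Gls2_CA, 1679 in Cyp1a2_C and 9231 ± 153 in WT. The mitochondrial sum was thus 33.3% of its WT mean in Cyp1a2_CA, 46.6% in Gls2_CA and 11.2% in Cyp1a2_C, and the nuclear sum 41.6%, 43.7% and 18.2%. The ratio of the sums was 6.77 to 9.38 in Cyp1a2_CA, 7.83 to 12.8 in Gls2_CA, 6.29 in Cyp1a2_C and 9.34 to 11.4 in WT. In 8 of 9 Cyp1a2_CA animals but in 1 of 5 Gls2_CA animals, GAB235, the ratio lay below every WT liver. The 4 Ttn-high libraries had the 4 lowest nuclear sums of all libraries and their mitochondrial sums were 10553 to 21413 CPM after summing by animal. The ranking was close: CAB44-L had a nuclear sum of 2996 CPM and CAB52-L, with Ttn at 92.9 CPM, had 2998. As a share of all counts, nuclear members made up 0.253% in CAB52-L, less than in the Ttn-high CAB225-L (0.289%) and CAB44-L (0.323%). A low nuclear sum thus did not set the Ttn-high libraries apart. Without the Ttn-high animals the mean mitochondrial sum was 34905 CPM in Cyp1a2_CA (n = 7) and 50699 in Gls2_CA (n = 4). The mean nuclear sum was then 4135 and 4490 CPM.

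Several tumours of 1 animal were sequenced in 3 cases. In GAB242 (Gls2_CA) the mitochondrial sum was 72695 CPM in tumour S, 40791 in M and 21649 in L, a 3.36-fold range, while the nuclear sum varied 1.42-fold. CYTB varied 4.61-fold and ND4 4.62-fold among these tumours, and COX1 2.64-fold. In GAB294 the mitochondrial sum varied 1.18-fold over 3 tumours and in CAB28 (Cyp1a2_CA) 1.11-fold over 2. The ratio of the sums was 14.6, 9.69 and 6.15 in the S, M and L tumours of GAB242.

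**Figure D2:**
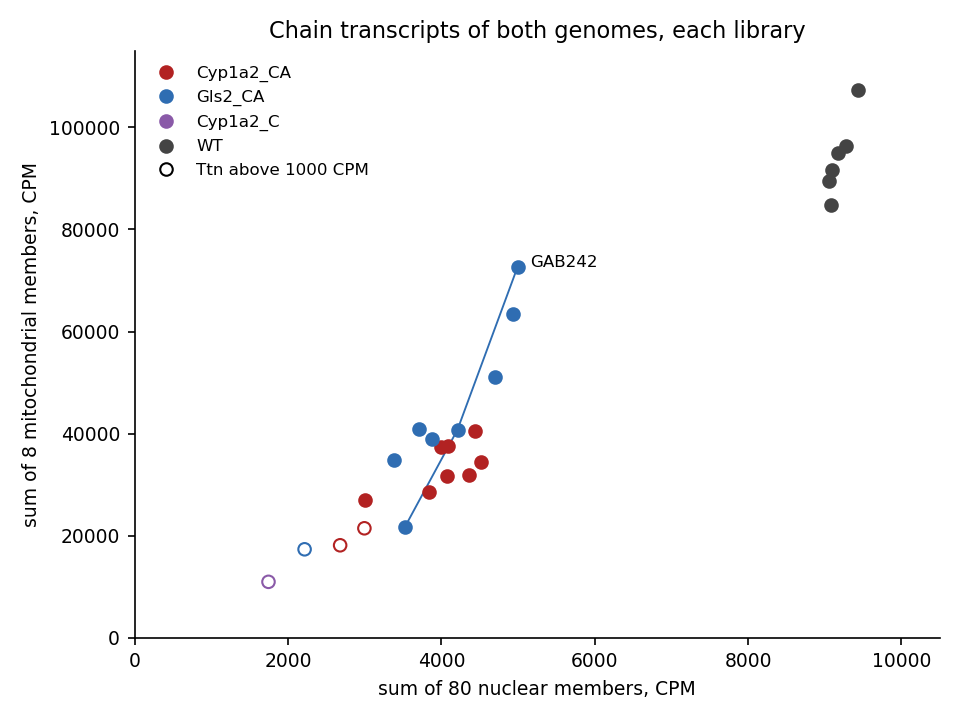
Sum of the 8 mitochondrial members against the sum of the 80 nuclear members, both in CPM, for each library. Open circles mark Ttn above 1000 CPM and the line joins the 3 tumours of GAB242, whose mitochondrial sums ran between 21649 and 72695 CPM. All WT livers sat to the upper right of all tumours.

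Complex I, the NADH dehydrogenase, had 32 of 37 nuclear members lower and 2 higher in Cyp1a2_CA, with a median log2 fold change of -1.56, and 31 lower and 3 higher in Gls2_CA, with a median of -1.44. Ndufs5, an accessory subunit, fell most, with 0.628, 0.929 and 1.497 CPM (lowest, median, highest) in Cyp1a2_CA, 1.93, 0.662, 1.03, 1.0 and 0.739 CPM in Gls2_CA, and 4.73, 5.80 and 7.10 CPM in WT. No tumour overlapped WT, and the log2 fold changes were -2.62 (SE 0.199, edgeR adjusted p = 1.0e-08) and -2.51 (SE 0.288, adjusted p = 9.4e-06). Ndufb9, the nuclear complex I member with the highest WT level per kilobase of exon (299 CPM per kilobase, 28.6% of exon bases shared with Gm49356 on the same strand), averaged 56.4 ± 17.5 CPM in Cyp1a2_CA, 70.6 ± 31.4 CPM in Gls2_CA and 211 ± 11.1 in WT.

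Ndufa7, an accessory subunit of the NADH-binding arm, went the other way, with 20.8, 31.0 and 39.5 CPM in Cyp1a2_CA, 39.8, 32.2, 17.1, 39.1 and 28.1 CPM in Gls2_CA, and 16.3, 19.2 and 21.6 CPM in WT. It was above every WT liver in 8 of 9 and 4 of 5 animals, the exceptions being CAB225 and GAB235, both Ttn-high, and its log2 fold change was 0.61 in both groups (SE 0.132, edgeR adjusted p = 6.9e-04, and SE 0.182, adjusted p = 0.0092). Ndufa13 rose in Cyp1a2_CA (0.50, SE 0.132, adjusted p = 0.0030), where all 9 animals were above WT. Its value in Gls2_CA was 0.24 (adjusted p = 0.12), and 0.34 (adjusted p = 0.011) without GAB235. The exons of Ndufa13 overlap those of Tssk6 on the opposite strand over 30.0% of their length, and without a stated strand setting their reads cannot be told apart.

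Ndufs1, which carries iron-sulphur clusters on the electron path, had 86.4, 142 and 213 CPM in Cyp1a2_CA, 184, 200.1, 76.7, 182 and 174 CPM in Gls2_CA, and 99.5, 107 and 112 CPM in WT. In Gls2_CA 4 of 5 animals were above every WT liver and GAB235 below every one, with a log2 fold change of 0.50 (SE 0.188, edgeR adjusted p = 0.029). This call was lost with upper-quartile factors (0.28, adjusted p = 0.20), in the fit of all groups (0.51, adjusted p = 0.051) and without any single animal other than GAB235 (0.43 to 0.51). In Cyp1a2_CA its value was 0.31 (adjusted p = 0.11), and it passed without the Ttn-high libraries (0.44, adjusted p = 0.010) and without CAB225 alone (0.37, adjusted p = 0.044).

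Complex II, succinate dehydrogenase, is encoded wholly in the nucleus and also serves the citric acid cycle. Its 4 genes all fell in Cyp1a2_CA and 3 of 4 in Gls2_CA, with median log2 fold changes of -1.70 and -1.91. Sdhd, a membrane anchor, had 18.6, 28.9 and 40.6 CPM in Cyp1a2_CA, 33.8, 42.3, 15.6, 26.7 and 25.3 CPM in Gls2_CA, and 132, 136 and 144.99 CPM in WT. The groups were far apart, with log2 fold changes of -2.24 (SE 0.148, edgeR adjusted p = 2.3e-09) and -2.36 (SE 0.203, adjusted p = 9.1e-07). Sdha, the flavoprotein that oxidises succinate, averaged 104 ± 30.8 CPM in Cyp1a2_CA, 97.1 ± 26.3 CPM in Gls2_CA and 425 ± 19.1 in WT (SD, n = 9, 5 and 6). Sdhb, the iron-sulphur subunit, averaged 72.8 ± 23.2 CPM in Cyp1a2_CA, 59.5 ± 22.99 CPM in Gls2_CA and 168 ± 12.96 in WT.

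Sdhc, the other anchor, moved least, with 28.1, 43.96 and 75.6 CPM in Cyp1a2_CA, 59.7, 76.3, 24.9, 67.1 and 51.4 CPM in Gls2_CA, and 64.9, 72.5 and 96.5 CPM in WT. In Gls2_CA 2 of 5 animals lay within the WT range and its value was -0.53 (SE 0.224), with an edgeR adjusted p that rounds to 0.050 and did not pass. The edgeR value sat at the threshold, and Sdhc passed with DESeq2 (-0.54, adjusted p = 0.034), without GAB229 (-0.66, adjusted p = 0.023) and without GAB235 (-0.35, adjusted p = 0.034). Summed over the 4 genes, complex II reached 31.4% of the WT mean in Cyp1a2_CA, 30.0% in Gls2_CA and 8.75% in Cyp1a2_C. Among the sums of nuclear members, this was the lowest percentage of the complexes in each group.

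Complex III, the cytochrome bc1 complex, had 7 of 8 nuclear members lower in both comparisons, with median log2 fold changes of -2.05 and -2.21. Uqcrfs1, the Rieske iron-sulphur protein, had 9.48, 16.97 and 23.7 CPM in Cyp1a2_CA, 16.6, 17.5, 6.34, 18.1 and 16.3 CPM in Gls2_CA, and 71.0, 112 and 113 CPM in WT. Tumours and WT were separated by a gap even though WT replicate 1 was well below the other WT livers, and the log2 fold changes of -2.79 (SE 0.175, edgeR adjusted p = 1.4e-09) and -2.92 (SE 0.247, adjusted p = 8.3e-07) were the largest falls among nuclear members. Uqcrc1, a core subunit, fell by 2.19 and 2.32 on the log2 scale, and Uqcrh, the hinge subunit, by 2.17 and 2.24. Uqcr10, a small subunit beside cytochrome b with 190.3 CPM per kilobase in Cyp1a2_CA, 231 in Gls2_CA and 180.4 in WT, had 39.6, 86.3 and 118 CPM in Cyp1a2_CA, 138, 146, 54.0, 103 and 60.6 CPM in Gls2_CA, and 72.6, 76.6 and 89.9 CPM in WT. It overlapped WT on both sides and did not pass (edgeR adjusted p = 1.0 and 0.34).

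Complex IV, cytochrome c oxidase, had 11 of 13 nuclear members tested lower and 1 higher in Cyp1a2_CA, and 11 of 12 lower and none higher in Gls2_CA, with medians of -1.61 and -1.58. The higher one, Cox6b2, passed the filter on low counts only through the tumours and was not tested in Gls2_CA. Cox7c had 12.4, 16.9 and 29.1 CPM in Cyp1a2_CA, 20.9, 20.5, 7.66, 20.6 and 14.7 CPM in Gls2_CA, and 90.0, 96.3 and 108 CPM in WT. This small membrane subunit fell by 2.43 and 2.64 on the log2 scale (edgeR adjusted p = 1.0e-09 and 8.1e-07) with no overlap. Cox6a1, the form of subunit VIa outside muscle and the nuclear complex IV member with the highest WT level per kilobase, averaged 135 ± 37.7 CPM in Cyp1a2_CA, 161 ± 64.3 CPM in Gls2_CA and 289 ± 37.5 in WT. Cox7a2l, known for joining complexes III and IV into supercomplexes, fell by 1.11 and 1.03, with 14.5 to 31.6 CPM in Cyp1a2_CA, 21.1 to 25.7 CPM in Gls2_CA and 43.2 to 49.1 in WT.

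Several complex IV subunits, and Ndufa4, have a second gene used mainly in other tissues or under low oxygen, and these forms did not follow the usual ones. Cox6b2, the testis form of Cox6b1, had 0.147, 2.92 and 8.49 CPM in Cyp1a2_CA, 4.78, 1.02, 5.69, 2.78 and 0.323 CPM in Gls2_CA, 12.0 CPM in Cyp1a2_C, and 0, 0.0628 and 0.321 CPM in WT. In Cyp1a2_CA 8 of 9 animals exceeded every WT liver, and so did all 5 Gls2_CA animals, GAB294 only barely. It passed the filter on low counts in Cyp1a2_CA only through the tumours, so that its call there (log2 fold change 4.98, SE 0.960, edgeR adjusted p = 2.5e-04) is a description, and it was not tested in Gls2_CA. The ratio of summed levels was 34.3 in Cyp1a2_CA (95% counting interval 18.03 to 75.2) and 24.8 in Gls2_CA (12.98 to 54.3). Cox6b1 itself fell to 42.5 ± 7.82 CPM in Cyp1a2_CA and 47.3 ± 17.7 in Gls2_CA, against 137 ± 13.2 in WT.

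Cox4i2, the lung and low-oxygen form of Cox4i1, was high in the Ttn-high libraries. It had 11.6 CPM in CAB44 and 4.21 in CAB225 and at most 0.211 in the other 7 Cyp1a2_CA animals, 23.1 CPM in GAB235 and at most 0.356 in the other 4 Gls2_CA animals, 12.4 CPM in Cyp1a2_C, and at most 0.129 CPM in WT. It did not pass the default filter on low counts in the main fit of any comparison, so no test is given. Of the counts of both forms Cox4i2 made up 13.2% in CAB44, 28.8% in GAB235, 21.6% in Cyp1a2_C and at most 0.0737% in WT. Ndufa4l2, the low-oxygen form of Ndufa4, had 21.5 CPM in CAB44, 12.0 in GAB235 and 9.95 in Cyp1a2_C, and made up 50.5%, 53.7% and 63.8% of the pair there, against at most 2.15% in WT. Its call in Gls2_CA (1.89, SE 0.715, edgeR adjusted p = 0.031) rested on GAB235, without which it was 0.79 (adjusted p = 0.16). In CAB225, the remaining Ttn-high animal, Ndufa4l2 was at 1.41 CPM, and tumour L of GAB242, whose Ttn was not high, had 8.64 CPM of Ndufa4l2 and 17.7 CPM of Ndufa4.

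The muscle forms Cox6a2 and Cox8b had few counts in every group. Cox6a2 had 28 counts over all Cyp1a2_CA libraries, 18 over Gls2_CA, 2 in Cyp1a2_C and 3 over WT. Cox8b had 5, 7, 13 and 0 counts in these groups, and Cox8c and Cox7b2, forms known from testis, had 0 throughout. Cox7a1, the heart and muscle form of Cox7a2, was at 0.558 to 2.0 CPM in Cyp1a2_CA, 0.888 to 2.58 CPM in Gls2_CA, 1.997 in Cyp1a2_C and 0.516 to 1.65 in WT, and did not pass against WT in either group. It made up 10.7% of the pair with Cox7a2 in Cyp1a2_C, against at most 1.11% in WT. Its Cyp1a2_CA value of -0.62 (edgeR adjusted p = 0.096) passed without CAB228 (-0.85, adjusted p = 0.010) and without WT replicate 2 (-0.78, adjusted p = 0.034). The summed level of 14 striated muscle markers was 286 to 22014 CPM in Cyp1a2_CA libraries, 819.7 to 31123 in Gls2_CA, 9370.05 in Cyp1a2_C and 106 to 148 in WT, so every tumour library was above WT. Of those that could be tested, 3 of 4 rose in Cyp1a2_CA and 3 of 3 in Gls2_CA. As 6 of the 14 were at 0 in WT, markers could pass the filter on low counts through the tumours alone. These calls are therefore a description. Among the 14, Ckm and Mb were at 0 in all Cyp1a2_CA libraries, Myh6, Myh7, Mb and Tcap in all Gls2_CA libraries, Ckm and Myh6 in Cyp1a2_C, and 6 markers in WT.

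**Figure D3:**
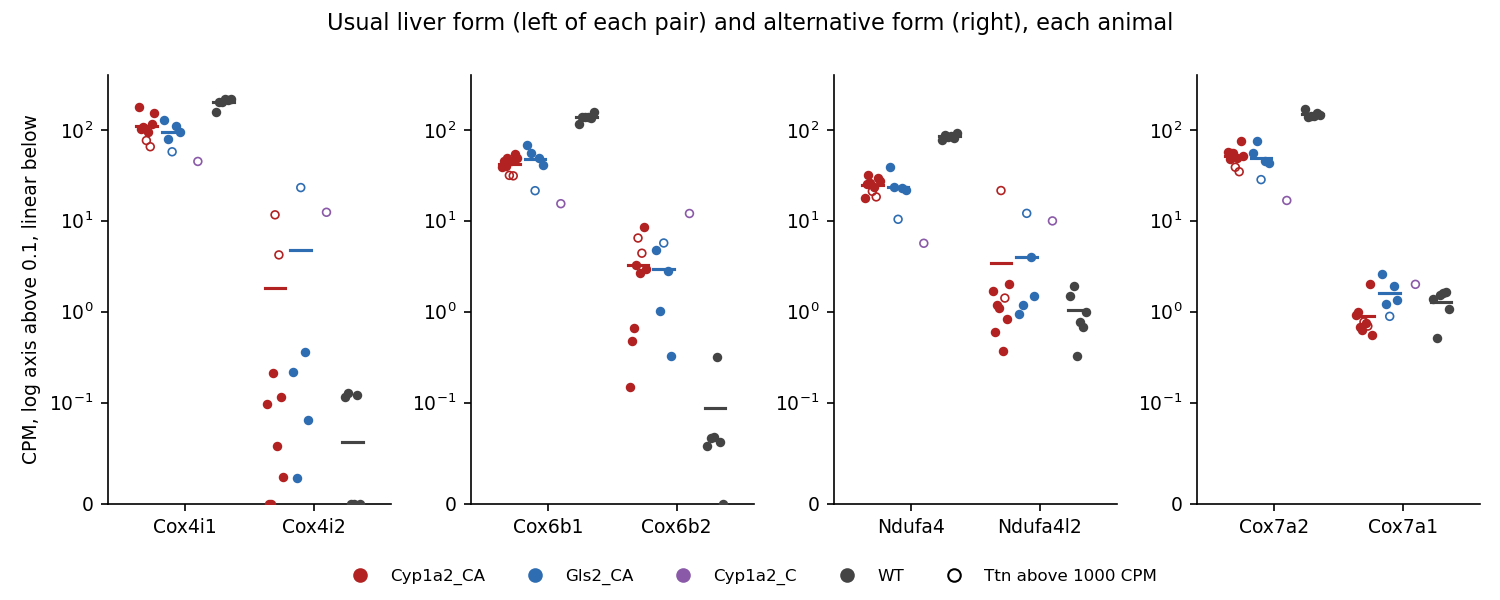
CPM of 4 pairs of genes in each animal, the usual liver form at the left and the alternative form at the right of each panel, on an axis that is logarithmic above 0.1 and linear below. Lines are group means and open circles mark Ttn above 1000 CPM. Cox4i2 is above 1 CPM only in open circles, whereas Cox6b2 is raised in filled circles too.

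In complex V, the ATP synthase, some subunits fell steeply and others did not. In both comparisons 12 of 17 members were lower and 2 higher. The medians of -0.87 and -0.84 were closest to 0 among the nuclear medians of the complexes. By summed CPM of nuclear members alone, complex I was nearest to WT, at 49.98% of the WT mean in Cyp1a2_CA and 51.96% in Gls2_CA. Complex V was at 42.4% and 46.1%. The mitochondrial members of complexes I, III and IV are not in these sums. Atp5a1, the alpha subunit of the catalytic head, had 118, 186 and 241 CPM in Cyp1a2_CA, 180.2, 258, 103, 193 and 181 CPM in Gls2_CA, and 859, 920.0 and 1019 CPM in WT. Atp5b, the catalytic beta subunit, had 101, 202 and 279 CPM in Cyp1a2_CA, 239.4, 246, 122, 255 and 187 CPM in Gls2_CA, and 778, 906 and 936 CPM in WT. Neither gene overlapped WT, and Atp5a1 fell by 2.40 and 2.44 and Atp5b by 2.32 and 2.18 on the log2 scale (edgeR adjusted p between 4.5e-10 and 9.5e-07).

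Other parts of the same enzyme differed. The gamma subunit Atp5c1 (-0.19 and -0.14) and the delta subunit Atp5d (0.11 and 0.37) did not pass. The 3 genes of the identical mature c subunit, which forms the rotating ring, also differed: Atp5g1 was 51.0 ± 10.2 CPM in Cyp1a2_CA, 53.6 ± 21.5 CPM in Gls2_CA and 82.6 ± 9.80 in WT, and fell by 0.77 and 0.73 on the log2 scale. Atp5g2 fell by 0.80 and 0.77, averaging 3.82 ± 1.15 CPM in Cyp1a2_CA, 3.97 ± 1.21 CPM in Gls2_CA and 6.29 ± 1.72 in WT, and Atp5g3, at 102 ± 30.4 CPM in Cyp1a2_CA, 119 ± 46.6 CPM in Gls2_CA and 105 ± 13.4 in WT, did not pass.

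Atp5j, coupling factor F6 of the stalk, rose, with 91.1, 114 and 179 CPM in Cyp1a2_CA, 142, 163, 60.9, 117 and 102 CPM in Gls2_CA, and 53.8, 55.7 and 64.0 CPM in WT. Every Cyp1a2_CA and Gls2_CA animal but GAB235 was above every WT liver, and the log2 fold changes were 1.02 (SE 0.139, edgeR adjusted p = 7.5e-06) and 0.93 (SE 0.191, adjusted p = 8.7e-04). The exons of Atp5j overlap those of Gabpa, a transcription factor of chain genes on the opposite strand, over 16.3% of their length, and Gabpa averaged 168 ± 26.5 CPM in Cyp1a2_CA, 161 ± 25.6 CPM in Gls2_CA and 62.0 ± 2.16 in WT. Reads from the overlap cannot be told apart. Atp5s, an accessory factor, rose by the widest margin of complex V, with 7.45, 10.7 and 14.3 CPM in Cyp1a2_CA, 9.65, 14.95, 13.8, 11.2 and 12.0 CPM in Gls2_CA, and 2.38, 3.52 and 4.30 CPM in WT (log2 fold changes 1.57 and 1.80, edgeR adjusted p = 2.2e-06 and 7.0e-06).

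**Figure D4:**
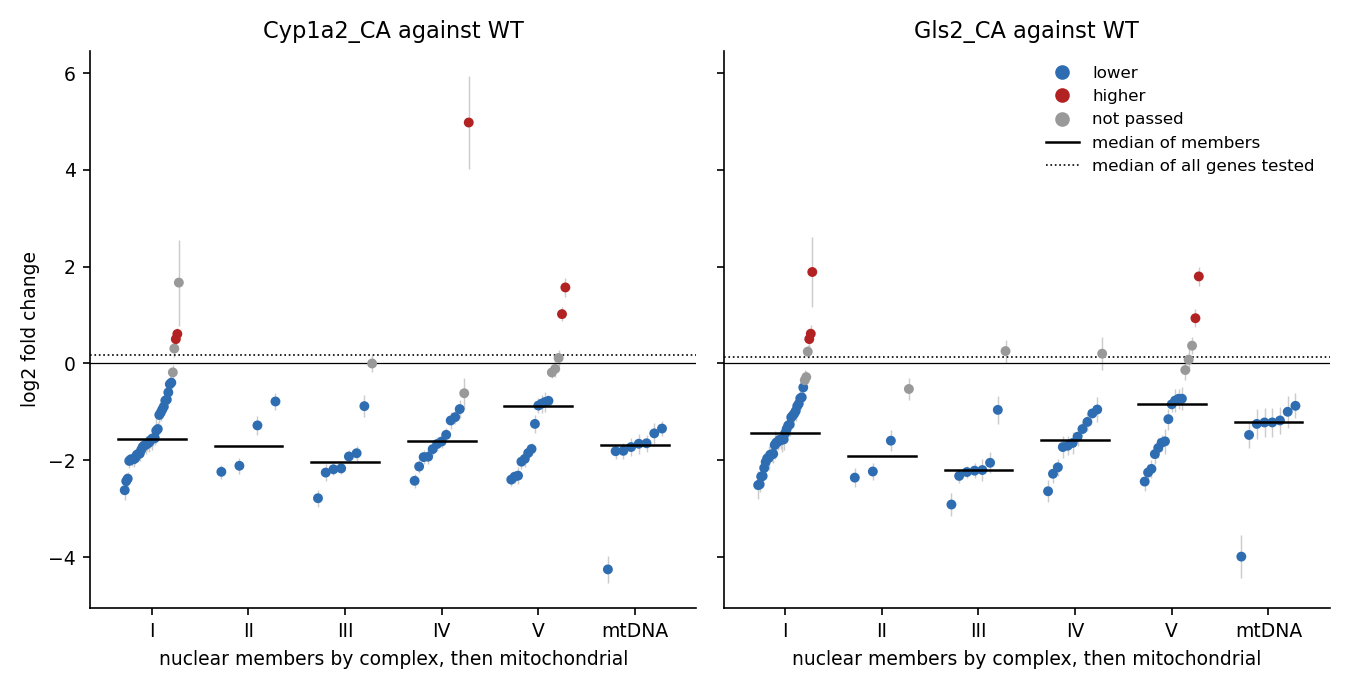
Log2 fold change against WT of each member tested, with its SE, by complex for the nuclear members and together for the mitochondrial ones. Bars are medians of members and the dotted line is the median of all genes tested. Complexes I to IV have medians between -1.44 and -2.21 in the 2 comparisons and complex V -0.87 and -0.84, without the length and GC offset.

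Transcript length moved with these values. Over all genes with an exon length, the median log2 fold change in Cyp1a2_CA was -1.02 for genes up to 600 bases, -0.83 up to 1000, -0.30 up to 2000, 0.21 up to 4000, 0.74 up to 8000 and 1.37 above that, and in Gls2_CA it was -1.10, -0.91, -0.39, 0.13, 0.68 and 1.33. The nuclear members are short, with a median exon length of 992 bases against 3145.5 over the genes tested between Cyp1a2_CA and WT. Within the classes up to 4000 bases the members' medians were -1.67 (14 members), -1.60 (25), -1.75 (30) and -0.92 (8) in Cyp1a2_CA and -1.60 (14), -1.48 (24), -1.67 (30) and -0.92 (8) in Gls2_CA, each below that of all genes of the class. With an offset for length and GC content per animal, 67 members were lower and 7 higher in Cyp1a2_CA and 62 and 10 in Gls2_CA, where 33.2% and 34.5% of all genes were lower and 34.6% and 35.9% higher.

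Under that offset the medians were -1.20 for mitochondrial and -0.95 for nuclear members in Cyp1a2_CA, and -0.63 and -0.72 in Gls2_CA. By complex the nuclear medians with the offset were -0.95 (I), -1.24 (II), -1.49 (III), -0.92 (IV) and -0.88 (V) in Cyp1a2_CA, where complexes I, IV and V were then close together, and -0.78, -1.37, -1.32, -0.70 and -0.57 in Gls2_CA. Of the 8 mitochondrial members all passed in Cyp1a2_CA and 4 in Gls2_CA, or 3 without ND3. In Gls2_CA CYTB was -0.52 (edgeR adjusted p = 0.078), ND1 -0.43 (0.15), ND2 -0.29 (0.38) and ND6 0.15 (0.58). Atp5a1 and Sdha hardly moved, at -2.48 and -2.09 in Cyp1a2_CA and -2.52 and -2.16 in Gls2_CA. Their exon lengths are 2904 and 2900 bases, in the class where the median of all genes was 0.21 and 0.13. A length offset has little to change there, so these 2 genes do not show how the shorter members respond. The part of library chemistry or RNA quality in the length pattern was not tested.

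**Figure D5:**
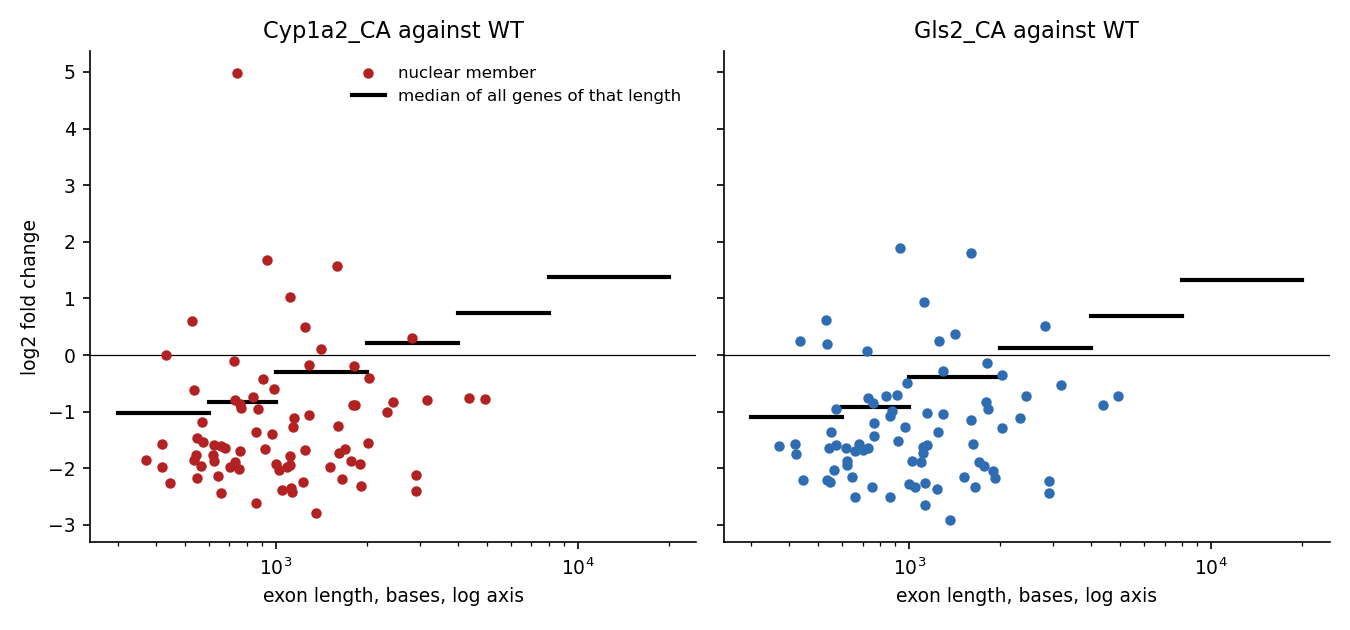
Log2 fold change against WT of each nuclear member tested, against exon length on a log axis, with black lines at the median of all genes in each length class. Most members lie below the line of their class in both panels.

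Promoters of nuclear members were searched on both strands for the cores of 3 factors known to drive chain genes: CGCATGCG for NRF1, CCGGAAGT for the ETS factor GABP and AAGATGGCG for YY1. RefSeq (GRCm38.p6) gave the bases from 250 before to 50 after the start for 67 of the 80 members. The NRF1 core was present in 9 of 67 (13.4%, against 2.07% of 27025 genes), the ETS core in 5 (7.46%, against 4.31%) and the YY1 core in 8 (11.9%, against 1.64%). Of the promoters with a core, Uqcrc1 holds the NRF1 core, Cox8a the ETS core and Ndufa9 the YY1 core, and all 3 genes fell in both groups. The second of the 2 start sites listed for Atp5j, which rose, has both the NRF1 and the YY1 core, and the first has neither. These 4 are shown with the cores of either strand in capitals, and a match is a description of letters only.

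Uqcrc1 promoter, chr9:108936398-108936697, plus strand: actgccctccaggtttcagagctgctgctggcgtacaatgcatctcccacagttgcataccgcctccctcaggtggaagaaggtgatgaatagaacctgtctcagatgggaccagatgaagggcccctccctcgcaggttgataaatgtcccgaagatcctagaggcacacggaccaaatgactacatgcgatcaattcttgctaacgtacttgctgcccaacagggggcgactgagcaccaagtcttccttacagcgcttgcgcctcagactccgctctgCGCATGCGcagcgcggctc
Cox8a promoter, chr19:7217567-7217866, minus strand: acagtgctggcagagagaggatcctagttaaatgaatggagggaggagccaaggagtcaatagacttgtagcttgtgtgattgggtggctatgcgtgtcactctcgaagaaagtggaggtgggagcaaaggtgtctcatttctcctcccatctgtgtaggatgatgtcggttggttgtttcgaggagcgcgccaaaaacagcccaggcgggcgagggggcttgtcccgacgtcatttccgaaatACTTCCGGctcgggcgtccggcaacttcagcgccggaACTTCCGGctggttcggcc
Ndufa9 promoter, chr6:126849095-126849394, minus strand: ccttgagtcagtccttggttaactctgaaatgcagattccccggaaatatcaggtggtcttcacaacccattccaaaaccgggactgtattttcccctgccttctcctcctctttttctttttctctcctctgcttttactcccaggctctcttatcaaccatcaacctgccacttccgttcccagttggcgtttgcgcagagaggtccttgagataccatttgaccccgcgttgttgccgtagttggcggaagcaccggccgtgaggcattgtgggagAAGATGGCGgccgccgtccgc
Atp5j promoter, chr16:84834927-84835226, minus strand: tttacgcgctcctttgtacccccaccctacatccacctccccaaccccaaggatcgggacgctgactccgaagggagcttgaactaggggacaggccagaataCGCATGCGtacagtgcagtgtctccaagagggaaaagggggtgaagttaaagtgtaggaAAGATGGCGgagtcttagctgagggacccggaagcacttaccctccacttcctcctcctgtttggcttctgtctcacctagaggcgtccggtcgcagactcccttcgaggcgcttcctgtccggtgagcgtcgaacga

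Cox8a averaged 76.3 ± 17.9 CPM in Cyp1a2_CA, 84.2 ± 16.9 CPM in Gls2_CA and 201 ± 23.7 in WT (log2 fold changes -1.47 and -1.36), and Ndufa9 fell by 1.98 and 2.16 on the log2 scale. For this and the lists below, the background over all genes tested was 32.7% lower and 38.3% higher in Cyp1a2_CA. In Gls2_CA it was 34.0% and 39.2%. Counts near these shares do not set a list apart from all genes. Among 10 regulators of mitochondrial biogenesis 7 rose and 2 fell in each comparison. Their median log2 fold change was 2.21 in Cyp1a2_CA and 2.15 in Gls2_CA, the opposite direction to most members. Nrf1 averaged 68.4 ± 11.6 CPM in Cyp1a2_CA, 62.9 ± 16.9 CPM in Gls2_CA and 10.1 ± 1.18 in WT (log2 fold changes 2.68 and 2.55, edgeR adjusted p = 2.9e-10 and 4.1e-07). Gabpb1, the partner of Gabpa in GABP, rose by 3.18 and 2.98, and Ppargc1a, the coactivator that drives mitochondrial biogenesis in liver and muscle, by 2.34 and 2.86. Yy1 and Ppargc1b fell, by 0.64 and 0.73 and by 2.34 and 1.92. With the length and GC offset the list medians were 1.41 and 1.33.

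Of 16 genes for copying and transcribing mitochondrial DNA, 4 were lower and 7 higher in Cyp1a2_CA and 3 and 7 in Gls2_CA. Over all genes tested, 32.7% were lower and 38.3% higher in Cyp1a2_CA and 34.0% and 39.2% in Gls2_CA. Ssbp1, which binds single-stranded mitochondrial DNA, rose by 1.41 and 1.34 on the log2 scale and the DNA polymerase Polg by 1.65 and 1.36. Polrmt, the mitochondrial RNA polymerase, fell by 0.76 and 0.86, and Tfam, the packaging and initiation factor, by 0.79 and 0.78. Of 15 genes of mitochondrial RNA processing and stability, 9 were lower and 3 higher in Cyp1a2_CA and 8 and 3 in Gls2_CA. Slirp, which helps keep mitochondrial mRNAs, fell by 1.79 and 1.83.

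Against the same shares of all genes, assembly factors were mixed for complex I, with 6 of 14 lower and 5 higher in Cyp1a2_CA. In Gls2_CA the counts were 6 and 4, and Ndufaf4 fell by 3.10 and 2.88 on the log2 scale in the 2 comparisons. All 4 complex II assembly factors fell in both, for example Sdhaf2 by 1.81 and 2.08. Complex III factors had 2 of 6 lower and 2 higher in each comparison, and complex V factors 2 of 3 lower and 1, Atpaf2, higher. Complex IV factors had 13 of 19 lower and 3 higher in Cyp1a2_CA and 11 and 3 in Gls2_CA, where Surf1 was among the higher ones (1.60 and 1.53). Of 23 chain genes outside the symbol rule 15 were lower and 6 higher in each comparison, and cytochrome c (Cycs), the carrier between complexes III and IV, averaged 18.98 ± 4.78 CPM in Cyp1a2_CA, 20.4 ± 9.66 CPM in Gls2_CA and 82.0 ± 6.05 in WT.

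Further mitochondrial lists were counted in the same way, against the same shares of all genes. Of 14 citric acid cycle genes 9 were lower and 3 higher in each comparison: Suclg1, of succinyl-CoA ligase, fell by 2.64 and 2.95 on the log2 scale, while Ogdh, of the oxoglutarate dehydrogenase complex, rose by 1.76 and 1.96. Carriers, porins and chaperones had 11 of 12 lower in Cyp1a2_CA and 10 of 12 in Gls2_CA with none higher, for example the porin Vdac2 by 1.99 and 2.14. Mitochondrial ribosomal protein genes had 56 of 77 lower and 10 higher in Cyp1a2_CA and 54 and 9 in Gls2_CA, with medians of -1.03 and -1.10. Cytosolic ribosomal protein genes, which are also short, had 55 of 78 lower and 9 higher in Cyp1a2_CA and 55 of 77 and 8 in Gls2_CA, with medians of -0.89 and -0.99, and -0.25 and -0.29 with the length and GC offset. The nuclear chain members had -0.95 and -0.72 under that offset.

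The zone of the driver was compared directly. Between Cyp1a2_CA and Gls2_CA edgeR called 0.0% of 17129 genes in either direction (554 at an unadjusted p under 0.05), DESeq2 called 20 and limma-voom with quality weights 10. No member of 87 tested was called by edgeR, and Cox7a1, CYTB and ND2 had an unadjusted p under 0.05. The log2 fold change of CYTB was -0.61 (SE 0.255, edgeR adjusted p = 1.0), that of ND2 -0.67 (SE 0.314) and that of COX1 -0.18 (SE 0.261). The median over the 8 mitochondrial members was -0.52, that over the 79 nuclear members tested -0.06 and that over all genes 0.005, and members ran between -0.83 and 0.36. Mitochondrial medians without single animals were between -0.72 and -0.32, and a p that misses the threshold does not show that the groups are alike.

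The Cyp1a2_C library had no replicate and gives values only. Its 2219.5 CPM of CYTB, 2048 of COX1 and 661 of ND6 lay below every animal of the other groups, and so did its 3.80 CPM of Uqcrfs1, 7.23 of Sdhd, 15.7 of Sdhb, 84.1 of Atp5a1 and 7.58 of Cox7c. Atp5s, at 9.01 CPM, was within the range of the Cyp1a2_CA animals and above WT. It is also the library with the lowest hepatocyte marker sum, and its Ttn was 8668 CPM.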

How the data were processed

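RNA-seq of 26 liver libraries was analysed from whole-number read counts per gene, deposited by the authors in 1 table of raw counts for all samples. The genome build was mm10 per the submitters' processing notes, while for aligner, counting tool, strand setting and annotation the sources used here name nothing. Libraries of 1 animal number were added together before fitting (21 animal numbers). Each p-value reflects only how much animal numbers differ within a group, which may be partly technical.

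Each pair of groups was tested with edgeR 4.0.16 (limma 3.58.1, R 4.3.3) by the quasi-likelihood test with robust estimation, TMM factors and the default filter on low counts, with Benjamini-Hochberg adjustment over all genes tested and a threshold of 0.05. Alternatives were other scaling factors, filters and groupings of libraries, DESeq2 1.42.0, limma-voom with quality weights, an offset for exon length and GC content, and leaving out animals or the libraries with Ttn above 1000 CPM. Exon length and GC content came from GENCODE M21 for 75.9% of symbols and for all 88 members. On simulated data with known changes, the test recovered 71 of 96 genes changed 4-fold in the Cyp1a2_CA comparison with WT, 80 of 96 in that of Gls2_CA with WT and 52 of 96 in that of Cyp1a2_CA with Gls2_CA. Of genes changed 2-fold it recovered 37 of 98, 32 of 99 and 10 of 97 in the same order of comparisons.

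Members and gene lists were chosen with earlier results of these data known. Named members were all mitochondrial ones, the succinate dehydrogenase genes, tissue-specific forms, the c subunit genes, and among the nuclear members of each complex the highest level per kilobase over all animals, the largest rise and fall, and those that passed against the direction of most. Up to 3 genes per list were named by smallest p. Uqcrc1, Uqcrh, Ndufa9, Atp5c1, Atp5d, Surf1, Tfam, Gabpa, Yy1 and Ppargc1b were named after their values were seen. Intervals cover counting error only.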

Additional observations from a re-analysis of the deposited data

Results flagged for a closer look

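Among 126 sets of values (39 named members, the sums of mitochondrial and of nuclear members and their ratio, each in Cyp1a2_CA, Gls2_CA and WT), 17 had 1 animal far from the others, where chance gives about 1 in 20. WT replicate 1 accounted for 7 of them. It was highest for Atp5g2 (9.69 CPM, next 6.23), Cox6a1 (364, next 285), Cox8a (247, next 199) and Sdhc (96.5, next 74.9). It was lowest for Cox4i1 (155, next 204), Ndufb9 (189, next 210.4) and Uqcrfs1 (71.0, next 108).

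The Ttn-high animals accounted for 7 more. CAB44 stood out for Cox4i2 (11.6 CPM, next 4.21) and Ndufa4l2 (21.5, next 1.99), and GAB235 for Cox4i2 (23.1, next 0.356) and Ndufa4l2 (12.0, next 4.02). GAB235 was also lowest for Cox8a (55.0, next 86.6), Ndufs1 (76.7, next 174) and Uqcrfs1 (6.34, next 16.3). The others were CAB228 for Cox7a1 (2.0 CPM, next 0.998) and Ndufb9 (94.3, next 64.0), and WT replicate 4 for Cox6b2 (0.321, next 0.0657).

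In the Cyp1a2_C library, which enters no test, Atp5s (9.01 CPM), Cox4i2 (12.4), Cox6b2 (12.0), Cox7a1 (1.997) and Ndufa4l2 (9.95) were above every WT liver, whose highest values were 4.30, 0.129, 0.321, 1.65 and 1.94 CPM.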

How the results depend on the processing

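No paired analysis was possible because the replicate numbers follow accession order and tie no tumour to a WT liver. Without single animals, members lower numbered 72 to 75 and higher 5 to 6 in Cyp1a2_CA, and 72 to 75 and 3 to 6 in Gls2_CA (3 without WT replicate 3, 4, 5 or 6). Mitochondrial medians then ran between -1.76 and -1.62 in Cyp1a2_CA and between -1.40 and -1.02 in Gls2_CA, and nuclear ones between -1.65 and -1.55 and between -1.63 and -1.39. With the stricter filter of 10 CPM, 3 members were higher in each comparison with WT, and in Gls2_CA 2 with upper-quartile factors and 8 with every library a sample. With the length and GC offset 10 were higher in Gls2_CA, the medians were -1.20 (mitochondrial) and -0.95 (nuclear) in Cyp1a2_CA, and the nuclear median was -0.72 in Gls2_CA. ND6 in Gls2_CA reversed to 0.15 with that offset, and the cause was not tested. Upper-quartile factors moved the median of all genes to -0.05 in Cyp1a2_CA, against 0.175 with TMM, and to -0.09 in Gls2_CA, against 0.138. Of the alternatives for named members, 2785 kept their side of the threshold, 28 gained a call, 32 lost one and 1 reversed. The 2785 include all alternatives between Cyp1a2_CA and Gls2_CA, where no named member was called. There a kept side does not mean a kept sign, as the nuclear median without single animals ran between -0.17 and 0.03. Between Cyp1a2_CA and Gls2_CA no member was called without any single animal. WT libraries held fewer counts than tumours, which limits genes near 0 there, such as Cox6b2 with 9 counts over all WT livers.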
